A study of Mus musculus with 6 samples.

Results

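The 10 genes described here are the immediate early genes Fos, Fosb, Jun, Junb, Egr1, Ier2, Atf3 and Dusp1 and the inducible heat shock genes Hspa1a and Hspa1b. They were taken by symbol from a count table of 23478 genes. All 10 were in the table, and all 10 passed the filter on low counts, with between 652 and 409489 counts in a library. RNA was sequenced from 6 libraries of mouse tracheal cells taken on embryonic day 13.5: muscle gave 3 libraries and epithelium 3. Both populations came from control embryos of the genotype Bmp4 f/f; gamma SMA eGFP, that is with floxed alleles of the growth factor gene Bmp4 and a green reporter of gamma smooth muscle actin, and no Cre is named. Tissue was dissociated for 15 minutes with the enzyme TrypLE, stained for the epithelial surface protein Epcam and sorted into muscle and epithelial cells. The gates are not given in the sources used here, and the reporter marks the cells in which its actin promoter was on. The labels do not say whether replicates were separate embryos or litters, so p-values measure only the spread between these libraries.

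Immediate early genes are transcribed within minutes of a stimulus such as a growth factor, stretch or stress, before any new protein is needed, through factors already bound at or near their promoters (serum response factor with its Elk partners, and Creb). Their products include Fos and Jun proteins, which pair to form the transcription factor AP-1, the zinc finger factor Egr1, and brakes such as Dusp1, which removes phosphate from MAP kinases. Hspa1a and Hspa1b encode the inducible Hsp70 chaperone and are switched on by heat shock factor Hsf1 when proteins misfold. Both gene classes are also known to respond to enzymatic dissociation and sorting of tissue. Every library was dissociated and sorted, so transcripts made in the embryo and transcripts made during isolation cannot be told apart.

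Total counts ranged from 11847432 to 54848820. The sorted populations matched their labels, since all 10 smooth muscle markers were higher in muscle and all 10 epithelial markers in epithelium. Muscle replicate 2 had a summed smooth muscle marker level of 4370 CPM (counts per 1000000 after scaling), against 17750 and 19300 in the other muscle libraries. Summed cartilage and fibroblast markers were at 8435 to 11640 CPM in muscle, and in epithelium at 752 and 479 CPM in replicates 1 and 3 and 2580 in replicate 2. Of the cartilage and fibroblast markers, 6 of 10 were called higher in muscle. Mesothelial markers summed to 3.54 to 18.6 CPM in muscle. In epithelium they summed to 157 to 407 CPM, nearly all of it Krt19, which the epithelium also expresses. Krt19 was at 1.48 to 2.38 CPM in muscle, and the highest muscle sum, in replicate 2, held 9.44 CPM of Wt1. The part of such cells in the members' differences was not tested. Endothelial, erythroid, immune and neural marker lists each summed to between 3.35 and 78.0 CPM in every library, no gene of them passed the test, and Hba-a1 was at 0 throughout. Olfactory and vomeronasal receptor genes, a measure of stray counts, summed to 883, 1817 and 636 CPM by library total in muscle replicate 2 and epithelium replicates 2 and 3, and to between 7.26 and 37.8 in the other 3 libraries. That is at most 1.25 CPM per receptor gene, far under the level of any member.

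Of the 10 genes, Egr1 and Ier2 were called lower in muscle than in epithelium in the test without covariates, and none was called higher. A gene was called at an adjusted p below 0.05 by the quasi-likelihood test of edgeR on TMM-scaled counts. Over all 19375 genes tested, 10.7% were called: 4.11% of the tested genes were higher in epithelium and 6.58% in muscle. Hspa1a and Hspa1b had the largest mean excess in muscle but did not pass. At an unadjusted p under 0.05 edgeR found 2 of the 10 higher in muscle and 3 higher in epithelium. Over all genes 21.7% did so in either direction. DESeq2 and limma-voom also called no member higher in muscle. With the replicate number as a block, edgeR called Hspa1a and Hspa1b higher in muscle (adjusted p = 0.045 and 0.047). That fit treats same-numbered libraries as pairs, which the sources used here do not state. The median log2 ratio of muscle over epithelium (the log2 fold change) of the 10 was -0.27, beside -0.10 over all tested genes. In bulk samples a difference in the share of responding cells and a difference in RNA per cell cannot be told apart.

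**Figure D1:**
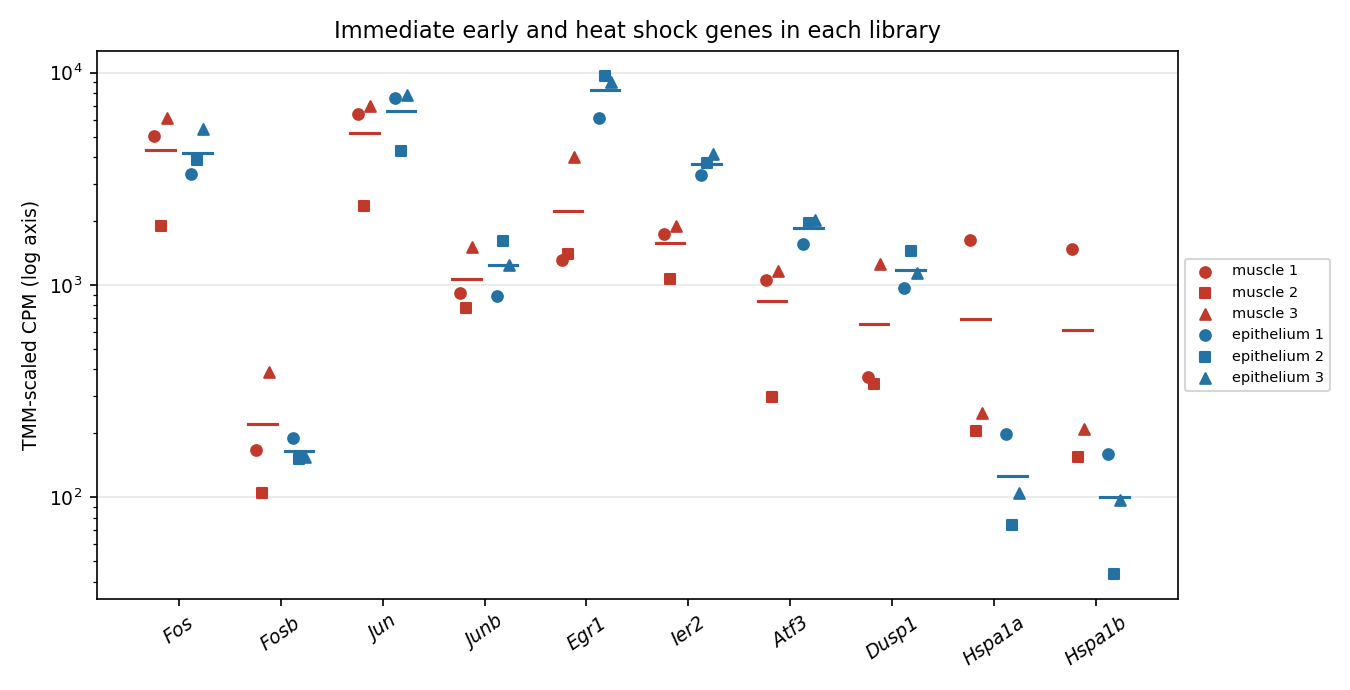
TMM-scaled CPM (log axis) of the 10 genes in each of 6 libraries: red for muscle, blue for epithelium, marker shape for the replicate number, and a bar for the mean of 3 libraries. Muscle and epithelium do not overlap for Egr1, Ier2, Atf3 and, only just (205 CPM against 198), Hspa1a. The square of muscle replicate 2 is the lowest muscle point in 9 of the 10 genes.

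Egr1, a zinc finger transcription factor and sensor of growth factor signalling, had 1311, 1403 and 3988 CPM in the 3 muscle libraries and 6087, 9686 and 9020 CPM in the 3 epithelial libraries, each in the order of the replicate numbers, as in all values given here. Every epithelial library was above every muscle library, and muscle replicate 3 was the closest to epithelium. Muscle averaged 2234 ± 1520 CPM (SD, n = 3) and epithelium 8264 ± 1915 CPM. Muscle was 3.70-fold lower, a log2 ratio of -1.89 ± 0.46 (SE; edgeR, adjusted p = 0.030). The call was lost without muscle replicate 1 (adjusted p = 0.11) and without epithelium replicate 3 (adjusted p = 0.066). Identifiers in the file header, read here as dates, put both replicates 2 on an earlier day than the other 4 libraries. Within the later date, 2 libraries against 2, the log2 ratio was -1.59 (adjusted p = 0.10), and in the earlier pair, with no test, muscle had 0.145 times the CPM of epithelium.

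Ier2, a nuclear protein gene induced as early as Fos, had 1740, 1070 and 1900 CPM in muscle and 3281, 3760 and 4135 CPM in epithelium. No muscle library reached the level of an epithelial one, and its libraries were the closest together of the members in both populations. Muscle averaged 1570 ± 440 CPM (SD, n = 3) and epithelium 3725 ± 428 CPM. Muscle was 2.37-fold lower, a log2 ratio of -1.25 ± 0.29 (SE; edgeR, adjusted p = 0.024). It was -1.10 within the later header date (adjusted p = 0.0096). The adjusted p was 0.084 without muscle replicate 1, 0.051 without muscle replicate 3 and 0.059 without epithelium replicate 3.

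Atf3, a stress-induced factor of the ATF family that can pair with Jun, also had all muscle libraries under all epithelial ones. It had 1056, 295 and 1166 CPM in muscle and 1558, 1967 and 2024 CPM in epithelium. The epithelial libraries were close together, while muscle replicate 2 lay far under the other muscle libraries. The log2 ratio of -1.14 ± 0.46 (SE) did not pass the threshold (adjusted p = 0.18, edgeR). It did pass within the later header date, with a log2 ratio of -0.77 (adjusted p = 0.037). It also passed in DESeq2, at -1.30 (adjusted p = 0.0074), and with scaling by library size only (adjusted p = 0.045). That scaling moved the median of all tested genes from -0.10 to -0.33 and the share of calls in the direction of muscle from 61.5% to 42.0%. Without muscle replicate 2 the fold change of Atf3 was -0.73 (adjusted p = 0.10).

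Dusp1, which shuts off MAP kinases, had 367, 342 and 1261 CPM in muscle and 963, 1437 and 1137 CPM in epithelium. Muscle replicate 3 lay among the epithelial libraries, while muscle replicates 1 and 2 lay under all of them. The log2 ratio of -0.84 ± 0.49 (SE) did not pass (adjusted p = 0.41, edgeR). Without muscle replicate 3 it was -1.72 (adjusted p = 0.016), and within the later header date -0.44 (adjusted p = 0.64). In all, 3 of the 10 genes (Egr1, Ier2, Atf3) had every muscle library under every epithelial one and 1 (Hspa1a) had the reverse. Over all genes tested 10.5% and 16.4% did, 26.9% together.

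The AP-1 genes Fos, Fosb, Jun and Junb overlapped between the populations. Fos had 5022, 1891 and 6123 CPM in muscle and 3318, 3859 and 5427 CPM in epithelium. Muscle held both the lowest and the highest library. The means were 4345 ± 2196 (SD, n = 3) and 4201 ± 1096 CPM, and the log2 ratio was 0.049 ± 0.42 (SE, adjusted p = 0.98, edgeR). Its sign turned in 9 of 16 alternative fits, which ranged from -0.30 to 0.42.

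Fosb, a Fos relative that pairs with the same Jun proteins, had 167, 104 and 390 CPM in muscle and 191, 151 and 154 CPM in epithelium. Only muscle replicate 3 was above the epithelial libraries. The log2 ratio of 0.41 ± 0.44 (SE, adjusted p = 0.79, edgeR) was -0.28 without that library. Jun, the main partner of Fos, had 6365, 2342 and 6934 CPM in muscle and 7611, 4257 and 7862 CPM in epithelium. In both populations replicate 2 was the low library. The edgeR test gave -0.34 ± 0.43 (SE, adjusted p = 0.84), and 0.025 without muscle replicate 2. Junb, a Jun relative that often opposes Jun at shared targets, had 918, 782 and 1515 CPM in muscle and 889, 1604 and 1235 CPM in epithelium. Its libraries were intermingled, with a log2 ratio of -0.21 ± 0.33 (SE, adjusted p = 0.89, edgeR). With standard errors of 0.33 to 0.44, the missing calls do not show that these 4 genes had equal levels in both populations.

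Promoter windows of 250 bases before the start (RefSeq, GRCm38.p6) were found for 8 of the 10 genes. For Atf3 and Dusp1 the windows precede a RefSeq start that lies inside the longer GENCODE model given below. Bases before the outer starts of those 2 models were not searched. Egr1 and Ier2, the genes called lower in muscle, had no window in the reference used and were not searched. The letters TGACGT, the core bound by Creb and ATF proteins, were searched on both strands and occurred in 3 of the 8 (Fos, Atf3 and Dusp1) and in 6.47% of all 32851 windows. The full palindrome TGACGTCA, which contains that core, occurred in 1 of 8 (Dusp1) and in 1.55% of all windows. TATAAA occurred in 1 of 8 (Fos) and 12.4% of all, and CCAAT in 4 of 8 and 33.8%. TGANTCA, the CArG box and the heat shock element, also searched on both strands, occurred in none of the 8, and in 6.75%, 1.47% and 0.47% of all windows. The windows of the 8 genes held 58.4% to 68.8% G or C, beside a median of 52.4% over all windows. The shares over all windows were not matched for this. A match is a run of letters, not a shown binding site. Nor does the lack of a match show that a promoter has no such element. Imperfect forms of the CArG box and the heat shock element were not counted. Sites more than 250 bases before the start were not searched. Whether these genes have working sites for serum response factor or Hsf1 was therefore not tested. The 3 windows with the core are printed because they are the members that share it, although their profiles over the libraries differed. Capitals mark TGACGT on either strand, TGACGTCA and TATAAA, for Fos at chr12:85473640-85473889 (plus strand), Atf3 at chr1:191183334-191183583 and Dusp1 at chr17:26508473-26508722 (both minus strand).
Fos: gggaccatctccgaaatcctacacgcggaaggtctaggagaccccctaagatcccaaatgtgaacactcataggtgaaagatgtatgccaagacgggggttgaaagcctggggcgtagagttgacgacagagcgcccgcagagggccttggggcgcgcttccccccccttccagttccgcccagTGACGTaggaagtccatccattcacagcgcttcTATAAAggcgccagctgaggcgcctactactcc
Atf3: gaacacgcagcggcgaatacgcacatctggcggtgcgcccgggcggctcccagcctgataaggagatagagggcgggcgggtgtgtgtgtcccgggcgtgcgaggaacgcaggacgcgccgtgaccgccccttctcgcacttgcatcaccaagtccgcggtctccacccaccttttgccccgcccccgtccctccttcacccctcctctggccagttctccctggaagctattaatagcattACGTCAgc
Dusp1: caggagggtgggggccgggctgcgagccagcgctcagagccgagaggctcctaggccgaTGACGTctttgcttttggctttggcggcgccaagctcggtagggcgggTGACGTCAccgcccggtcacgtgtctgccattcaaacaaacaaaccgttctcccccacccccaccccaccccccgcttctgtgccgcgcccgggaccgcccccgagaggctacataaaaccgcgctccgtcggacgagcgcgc

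**Figure D2:**
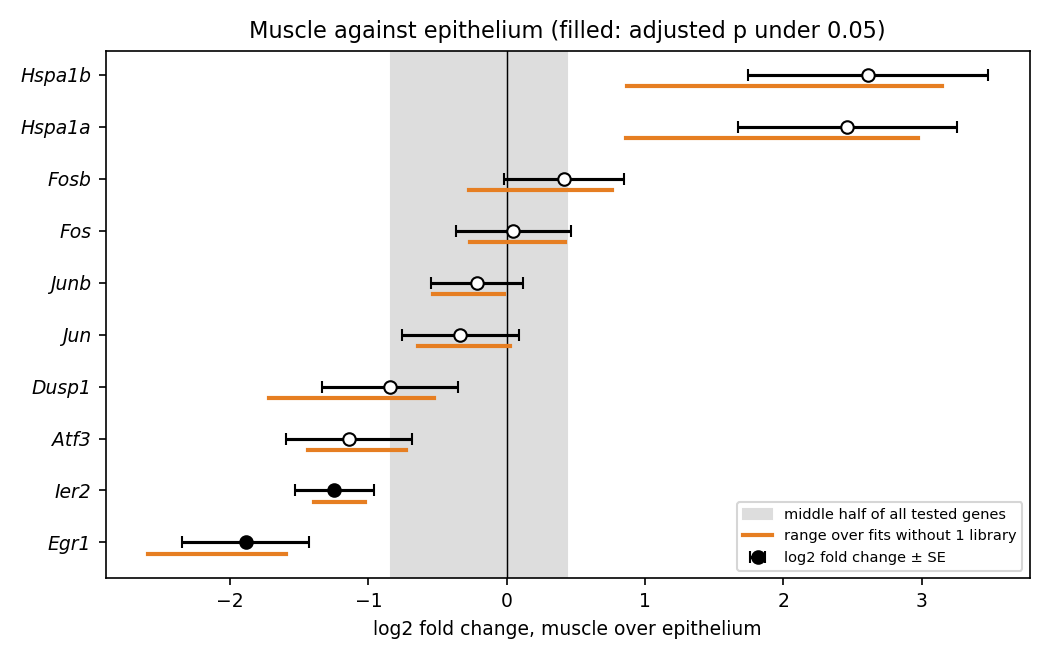
Log2 fold change of muscle over epithelium for the 10 genes: circles with SE bars for all 6 libraries, filled where the adjusted p was under 0.05, orange lines for the range over the 6 fits without 1 library, and grey for the middle 50% of all tested genes (-0.83 to 0.44). Egr1 and Ier2 are the filled points, and the orange lines of Hspa1a and Hspa1b reach down to 0.86 and 0.87.

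Counts of Egr1 and Ier2 relative to Fos in the same library were lower in muscle. The count of Egr1 was 0.261, 0.742 and 0.651 times that of Fos in muscle and 1.83, 2.51 and 1.66 times in epithelium. The ratio of Ier2 to Fos was 0.346, 0.566 and 0.31 in muscle and 0.989, 0.974 and 0.762 in epithelium. Jun over Fos was 1.27, 1.24 and 1.13 in muscle and 2.29, 1.1 and 1.45 in epithelium, so the populations overlapped in that ratio but in neither of the former. These ratios come from the same counts as the calls of Egr1 and Ier2, so they are no separate support. They carry no scaling between libraries, and they were not tested.

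Hspa1a and Hspa1b encode nearly the same protein from neighbouring genes. Hspa1a had 1622, 205 and 248 CPM in muscle and 198, 74.2 and 104 CPM in epithelium. Muscle replicate 1 stood apart from the other muscle libraries, and the lowest muscle library was just above the highest epithelial one. Muscle averaged 692 ± 806 CPM (SD, n = 3) and epithelium 125 ± 64.3 CPM, and the log2 ratio was 2.46 ± 0.79 (SE, adjusted p = 0.091, edgeR). Hspa1b had 1472, 155 and 209 CPM in muscle and 160, 43.6 and 96.6 CPM in epithelium. Here epithelium replicate 1 was just above muscle replicate 2. The log2 ratio was 2.61 ± 0.86 (SE, adjusted p = 0.10, edgeR).

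Much of both differences rested on muscle replicate 1. Without it the log2 ratio was 0.86 for Hspa1a (adjusted p = 0.39) and 0.87 for Hspa1b (adjusted p = 0.48). Within the later header date it was 2.56 (adjusted p = 0.10) and 2.64 (adjusted p = 0.10). With the replicate number as a block in edgeR it was 1.91 (adjusted p = 0.045) and 2.04 (adjusted p = 0.047). Between same-numbered libraries, CPM of Hspa1a in muscle was 8.21, 2.76 and 2.37 times that in epithelium for replicates 1 to 3. Whether such libraries are pairs, as the block fit assumes, is not given in the sources used here. Replicate 1 was the highest library of its population for Hspa1a in muscle and in epithelium alike. The libraries numbered 3, of the same header day, had 248 and 104 CPM.

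The table counts the genes apart, although their sequences are hard to separate. Their longest open reading frames (1926 and 1929 bases) differed at 8 aligned bases, and their identity, gaps included, was 99.43%. Of the 50-base words of the Hspa1a transcript, 58.8% also occur in that of Hspa1b. For Jun and Junb, and for Fos and Fosb, no 50-base word was shared. The count of Hspa1a was 1.1, 1.32 and 1.19 times that of Hspa1b in muscle and 1.24, 1.7 and 1.08 times in epithelium, and how reads matching both were assigned is not given in the sources used here. With the counts of both summed as 1 gene, the log2 ratio was 2.53 (adjusted p = 0.094, edgeR). The 250 bases before their transcription starts (RefSeq, GRCm38.p6, minus strand, chr17:34972157-34972406 for Hspa1a and chr17:34959239-34959488 for Hspa1b) are 98.8% identical. They are shown because they are nearly the same, and capitals mark the 3 bases that differ.
Hspa1a: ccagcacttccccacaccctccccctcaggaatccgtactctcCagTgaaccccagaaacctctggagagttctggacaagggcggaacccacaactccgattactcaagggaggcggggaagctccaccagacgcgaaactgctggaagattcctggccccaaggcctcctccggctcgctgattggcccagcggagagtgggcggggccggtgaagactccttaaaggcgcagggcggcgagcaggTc
Hspa1b: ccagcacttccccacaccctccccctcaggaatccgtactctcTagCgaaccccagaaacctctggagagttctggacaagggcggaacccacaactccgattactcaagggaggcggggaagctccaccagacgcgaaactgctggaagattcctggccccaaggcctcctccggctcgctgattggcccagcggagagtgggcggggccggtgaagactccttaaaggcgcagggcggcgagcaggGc

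Muscle replicate 1 was the highest muscle library for 10 of 13 other Hsp70 family genes and for 13 of 34 heat shock factor, other chaperone and co-chaperone genes, beside 29.1% of all tested genes. The ratio of its CPM to the mean of the other 2 muscle libraries had a median of 1.24 over the Hsp70 family genes and 1.11 over the chaperones, and reached at most 3.23 and 2.50. CPM in muscle replicate 1 was 7.16 times the mean of the other 2 muscle libraries for Hspa1a and 8.09 times for Hspa1b. It was 3.23 times for Hspa1l, the testis-type Hsp70 gene beside Hspa1a, of whose transcript 9.6% of 50-base words occur in Hspa1a. For Dnajb1, the inducible Hsp40 co-chaperone gene, it was 2.5 times, with 964, 328 and 442 CPM in muscle. It was 1.45 for Hspa8, the constitutive Hsp70 gene, 1.4 for Hsph1, 1.17 for Hsp90aa1 and 1.03 for Bag3, an Hsp70 partner, and 0.513 for the small heat shock gene Hspb1. These single genes besides Hspa1a and Hspa1b were picked for display after their values were seen.

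**Figure D3:**
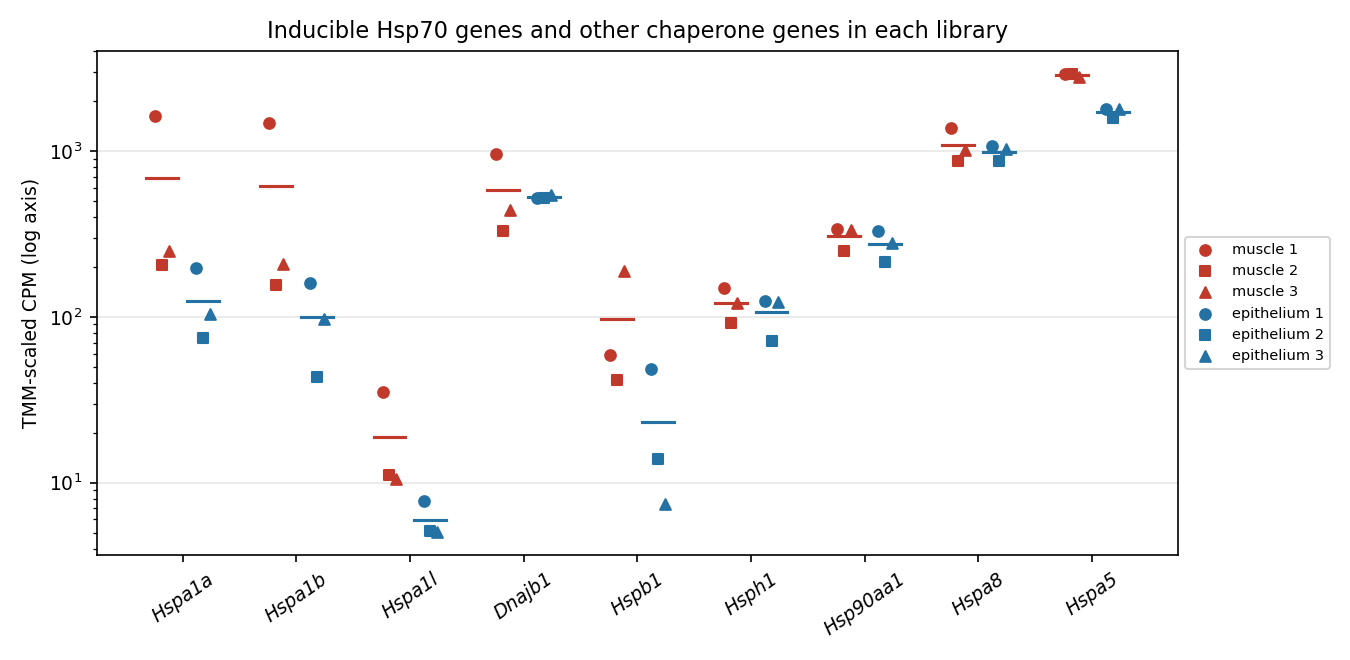
TMM-scaled CPM (log axis) of Hspa1a, Hspa1b and 7 other chaperone genes in each library, with colours, shapes and mean bars as in the plot of all members by library. The red circle of muscle replicate 1 lies far above the other muscle points for Hspa1a and Hspa1b (1622 and 1472 CPM) and near them for Hspa8 and Hspa5.

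Members varied more between muscle libraries than between epithelial ones. The SD of log2 CPM was larger in muscle for 10 of 10 genes, from 0.45 (Ier2) to 1.76 (Hspa1b) in muscle and from 0.17 (Ier2) to 0.94 (Hspa1b) in epithelium. In muscle, the highest library was 1.77 to 9.48 times the lowest, and in epithelium 1.26 to 3.67 times. For 7 of the 10, at least 20 tested genes had a like level (average log2 CPM within 0.5). Of these 7 members, 7 were above the median SD of such genes in muscle and 3 in epithelium. For Atf3 the muscle SD was 1.11 beside a median of 0.28 over 50 such genes, and the epithelial SD 0.21 beside 0.29. For Fosb it was 0.96 beside 0.35 over 1104 genes, and 0.19 beside 0.32 in epithelium. Fos, Jun and Egr1 had only 7, 4 and 4 such genes and were left out of this count. Muscle replicate 2 was the lowest muscle library for 9 of the 10 genes, Egr1 being the exception, and muscle replicate 3 the highest for 8. Over all tested genes these shares were 44.4% and 29.6%. Muscle replicate 2 was also the lowest for 28 of 34 chaperone genes and 18 of 21 factor and kinase genes of the related lists, and for 15 of 38 other immediate early genes. It was the lowest for 8 of 13 AP-1 partners, 8 of 13 other Hsp70 genes and 11 of 19 unfolded protein and stress response genes. Among other dual specificity phosphatase genes it was the lowest for 3 of 11. Replicate 2 is also the muscle library with the lowest smooth muscle markers and the most stray receptor counts, and the part of these in its low values was not tested.

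**Figure D4:**
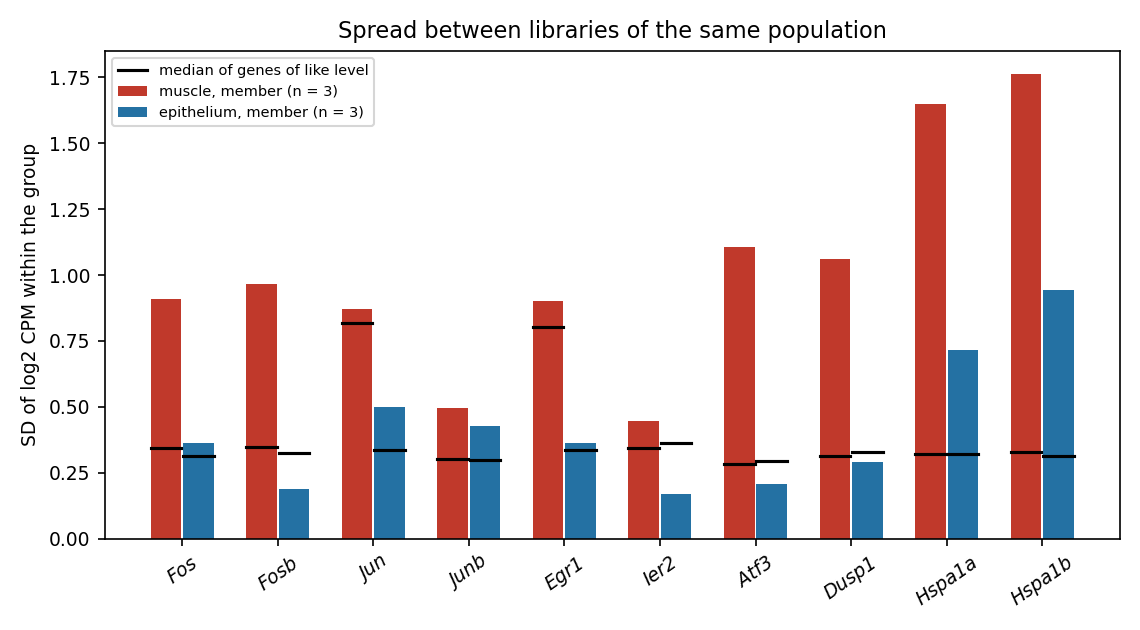
SD of log2 CPM between the 3 libraries of each population (bars from 0; red for muscle, blue for epithelium), with a black line for the median SD of tested genes of like level in the same population. The red bars are higher than the blue in all 10 genes, and those of Hspa1a and Hspa1b reach 1.65 and 1.76. For Fos, Jun and Egr1 the lines rest on only 7, 4 and 4 genes.

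The 10 genes made up 1.68%, 0.973% and 1.90% of all counts in the 3 muscle libraries and 2.38%, 3.39% and 3.29% in the 3 epithelial ones. In this share of raw totals, every epithelial library was above every muscle library. TMM scaling would divide the shares by 0.84, 1.13 and 0.80 in muscle and by 0.98, 1.27 and 1.06 in epithelium. The share includes the counts of Egr1 and Ier2, so it is no separate support for their calls, and it was not tested. Per kilobase of exon (GENCODE M21), several of the 10 genes stood among the most abundant of 18293 genes with a model. Ier2 had a mean level of 1032 CPM per kilobase in muscle (rank 19) and 2447 in epithelium (rank 3). Fos ranked 6 in muscle and 7 in epithelium, and Jun ranked 8 and 5. Egr1 ranked 59 in muscle and 6 in epithelium, at levels of 498 and 1843 CPM per kilobase. Hspa1a went the other way, with rank 194 in muscle and 1219 in epithelium, and Fosb ranked 1839 and 2073. The muscle rank of Hspa1a rests on a mean raised by muscle replicate 1 (1622 CPM, beside 205 and 248).

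Jun, Ier2, Hspa1a and Hspa1b have a single exon block, 4 of the 10, beside 4.4% of tested genes, and the median exonic length of the 10 was 2885 bases beside 3832, with 6243 for Fosb and 4484 for Egr1. On GRCm38 (mm10, the build in the submitters' processing notes), Fos lies at chr12:85473890-85477273 on the plus strand and Egr1 at chr18:34859823-34864984 on the plus strand. The others are on the minus strand, with Fosb at chr7:19302696-19310051, Jun at chr4:95049034-95052222 and Atf3 at chr1:191170296-191218039. Junb, at chr8:84974484-84978718, and Ier2, at chr8:84661331-84662852, share a chromosome. So do Dusp1, at chr17:26505590-26562128, Hspa1a, at chr17:34969190-34972156, and Hspa1b, at chr17:34956436-34959238. Gene models on the opposite strand overlap Junb (Prdx2), Jun (Junos), Atf3 (Gm24748), Dusp1 (Ergic1 and Gm8225) and Hspa1a (Gm20481). On its own strand, Dusp1 is overlapped by AC122252.4 and AC122252.1. Overlap was taken over whole gene spans, introns included, so exons need not overlap. Whether counting used the strand is not given in the sources used here. What these models add to the counts of the members was not tested. Prdx2 had 567 and 599 CPM in muscle and epithelium, with a log2 ratio of -0.080.

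Profiles were also compared by the root mean squared difference of log2 CPM, each centred on its mean over the 6 libraries, among 12738 genes of average log2 CPM of at least 2. The genes nearest to Fos were A930015D03Rik (0.12), Ap1s2 (0.12), BC022687 (0.18), Acss1 (0.24) and Trp53inp2 (0.24), where the median gene was at 0.62. Nearest to Hspa1a were Hspa1b (0.22), Msc (0.25), Fhl3 (0.47), Hspa1l (0.52) and 2810468N07Rik (0.53), where the median was 1.36. Msc had 52.0, 7.5 and 12.7 CPM in muscle and 6.9, 3.6 and 3.8 CPM in epithelium. Among members the nearest pair after Hspa1a and Hspa1b was Fos and Jun (0.36), followed by Ier2 and Atf3 (0.39), and the farthest was Egr1 and Hspa1b (2.56). With 6 libraries these are descriptions of profiles, not relations.

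Other immediate early genes moved in both directions. Of 38 tested, 8 were higher in epithelium and 6 in muscle (36.8%, beside 10.7% of all genes), with a median log2 ratio of -0.26. Among the Egr genes, grouped after their values were seen, Egr2 had 28.7, 39.1 and 34.6 CPM in muscle and 206, 220 and 218 CPM in epithelium. The libraries of each group lay close together. Its log2 ratio of -2.65 ± 0.24 (SE, adjusted p = 0.00041, edgeR) passed in 16 of 16 alternative fits. Egr4 (-3.40 ± 0.86, adjusted p = 0.036, edgeR) fell short in 5 of the 6 fits without a library (adjusted p up to 0.13), and Egr3, with 1.31 CPM in muscle, had a log2 ratio of -0.77 and did not pass (adjusted p = 0.90). Arc, best known as an activity-induced gene of neurons, had 31.3, 10.4 and 15.7 CPM in muscle and 358, 212 and 227 CPM in epithelium, a log2 ratio of -3.80 ± 0.45 (adjusted p = 0.0012, edgeR).

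Toward muscle, Socs3, a feedback inhibitor of cytokine signalling, had 298, 438 and 734 CPM in muscle and 51.8, 119 and 68.5 CPM in epithelium. All muscle libraries were well above all epithelial ones, with a log2 ratio of 2.62 ± 0.43 (SE, adjusted p = 0.0051, edgeR). Myc, the growth regulator, had 152, 140 and 157 CPM in muscle and 47.8, 37.8 and 25.5 CPM in epithelium (2.01 ± 0.28, adjusted p = 0.0023, edgeR). Irf1, an interferon response factor gene, had a log2 ratio of 1.51 (adjusted p = 0.013, edgeR), and 1.33 without epithelium replicate 3 (adjusted p = 0.072). The other calls, named after their values were seen, were Ctgf, Gadd45b and Ppp1r15a toward muscle and Nr4a1, Klf6, Klf10, Trib1 and Id1 toward epithelium. Without epithelium replicate 3, 9 of the 38 genes passed.

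Among 13 tested AP-1 relatives and partners, epithelium was higher in 2 and muscle in none (median log2 ratio -0.053). That is 15.4%, beside 10.7% of all genes. In edgeR 3 had an unadjusted p under 0.05, beside 21.7% of all genes. Without muscle replicate 1 or 3 or epithelium replicate 2 or 3, 1 of the 13 genes passed. Fosl1, a Fos family gene, had 0.68, 0.20 and 0.30 CPM in muscle and 5.47, 12.1 and 5.30 CPM in epithelium, a low level in both populations. Its log2 ratio of -4.25 ± 0.98 (SE, adjusted p = 0.024, edgeR) fell short in 3 of the 6 fits without a library (adjusted p up to 0.10). Maff, a small Maf gene whose product pairs with other leucine zipper factors, had a log2 ratio of -2.03 ± 0.44 (adjusted p = 0.019, edgeR). Without muscle replicate 1 its adjusted p was 0.065, and it was 0.078 within the later header date. Jund (-0.34, adjusted p = 0.85) and Fosl2 (0.058, adjusted p = 0.98) did not pass.

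Among 21 genes for factors and kinases that act on immediate early promoters, muscle was higher in 2 and epithelium in 2 (median 0.057). The share called was 19%, beside 10.7% of all genes. Myocd, the smooth muscle coactivator of serum response factor, had 476, 78.1 and 373 CPM in muscle and 1.15, 14.1 and 8.83 CPM in epithelium. Muscle replicate 2 was again the low muscle library. The log2 ratio was 5.29 ± 0.98 (SE, adjusted p = 0.0096, edgeR), and the adjusted p was 0.051 without muscle replicate 1 and 0.066 without epithelium replicate 3. Elk3, a serum response factor partner that can repress its targets, was higher in muscle (2.43 ± 0.26, adjusted p = 0.00075, edgeR). Mapk14, the p38 alpha kinase gene, was higher in epithelium (-1.76 ± 0.32, adjusted p = 0.0081, edgeR), and so was Rps6ka1, a kinase gene downstream of Erk (-2.08 ± 0.52, adjusted p = 0.036, edgeR). The call of Rps6ka1 was lost without muscle replicate 1, epithelium replicate 1 or epithelium replicate 3 (adjusted p up to 0.14). Srf itself (0.39, adjusted p = 0.57) and Creb1 (0.047, adjusted p = 0.97) did not pass. Without muscle replicate 1 or epithelium replicate 3, 2 of the 21 genes passed.

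None of 11 other dual specificity phosphatase genes passed in edgeR, beside 10.7% of all genes. At an unadjusted p under 0.05 edgeR found 2 of the 11, beside 21.7% of all genes. DESeq2 called 4 and limma-voom 1. Of the 2 with the highest level, Dusp6, an Erk phosphatase gene, had a log2 ratio of -0.61 ± 0.23 (SE, adjusted p = 0.14, edgeR). Dusp10, a phosphatase gene for p38 and Jnk, had 61.8, 49.7 and 69.0 CPM in muscle and 8.94, 36.5 and 15.1 CPM in epithelium, a log2 ratio of 1.59 ± 0.47 (adjusted p = 0.065). Without epithelium replicate 2, its highest epithelial library, the adjusted p of Dusp10 was 0.0016.

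Among 13 other Hsp70 family genes, muscle was higher in 2 and epithelium in none (median 0.18). That is 15.4%, beside 10.7% of all genes. In edgeR 7 had an unadjusted p under 0.05, beside 21.7% of all genes. Hspa13, a microsomal Hsp70 relative, had 121, 104 and 122 CPM in muscle and 54.9, 44.9 and 53.1 CPM in epithelium. The groups lay well apart (1.18 ± 0.22, adjusted p = 0.0093, edgeR). Without epithelium replicate 3 its adjusted p was 0.062, leaving 1 call in the list. Hspa12b, a distant relative, had a log2 ratio of 2.25 ± 0.40 (adjusted p = 0.0074, edgeR). Hspa8 had 1369, 870 and 1015 CPM in muscle and 1069, 876 and 1033 CPM in epithelium, which overlapped (0.13 ± 0.26, adjusted p = 0.92, edgeR).

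Among 34 tested genes of heat shock factors, chaperones and co-chaperones, muscle was higher in 7 and epithelium in 1 (median 0.29). The share called was 23.5%, beside 10.7% of all genes. The largest differences toward muscle were in Hspb2, Cryab and Hspb7, small heat shock protein genes that muscle tissues are known to express constitutively. Hspb2 had 14.8, 40.6 and 25.2 CPM in muscle and 0.45, 0.27 and 1.01 CPM in epithelium, a log2 ratio of 5.51 ± 0.62 (SE, adjusted p = 0.00097, edgeR). Cryab had 29.1, 105 and 75.3 CPM in muscle and 1.56, 2.87 and 3.46 CPM in epithelium (4.75 ± 0.54, adjusted p = 0.0010, edgeR). In both, muscle replicate 1 was the lowest muscle library, the reverse of Hspa1a. Hspb7 (4.70 ± 1.22, adjusted p = 0.041, edgeR) no longer passed without any 1 of the muscle libraries or without epithelium replicate 3 (adjusted p up to 0.22). Hspb8, another small heat shock gene, was higher in epithelium (-1.49 ± 0.27, adjusted p = 0.0079, edgeR). The factor genes Hsf1 (-0.064, adjusted p = 0.96) and Hsf2 (0.19, adjusted p = 0.86) did not pass, nor did Dnajb1 (0.14, adjusted p = 0.94). With library size scaling 13 genes passed, and without muscle replicate 1 5 did.

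Among 19 genes of the unfolded protein and integrated stress responses, muscle was higher in 2 and epithelium in 1 (median -0.17). The share called was 15.8%, beside 10.7% of all genes. Xbp1, a factor that expands the secretory pathway, had 258, 237 and 295 CPM in muscle and 109, 119 and 116 CPM in epithelium, with no overlap (1.20 ± 0.22, adjusted p = 0.0089, edgeR). Its adjusted p was 0.062 without epithelium replicate 3. Calr, the calcium-binding chaperone of the endoplasmic reticulum, had a log2 ratio of 1.00 ± 0.25 (SE, adjusted p = 0.033, edgeR) but passed only without muscle replicate 2 or epithelium replicate 2 when 1 library was left out (adjusted p up to 0.17). Sesn2, a stress-induced regulator of growth signalling, had 18.7, 16.6 and 19.7 CPM in muscle and 51.4, 53.8 and 46.6 CPM in epithelium (-1.46 ± 0.22, adjusted p = 0.0034, edgeR). Atf4, the main factor of the integrated stress response and counted among the AP-1 partners, did not pass (-0.086, adjusted p = 0.93). Without epithelium replicate 3, 1 of the 19 genes passed.

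**Figure D5:**
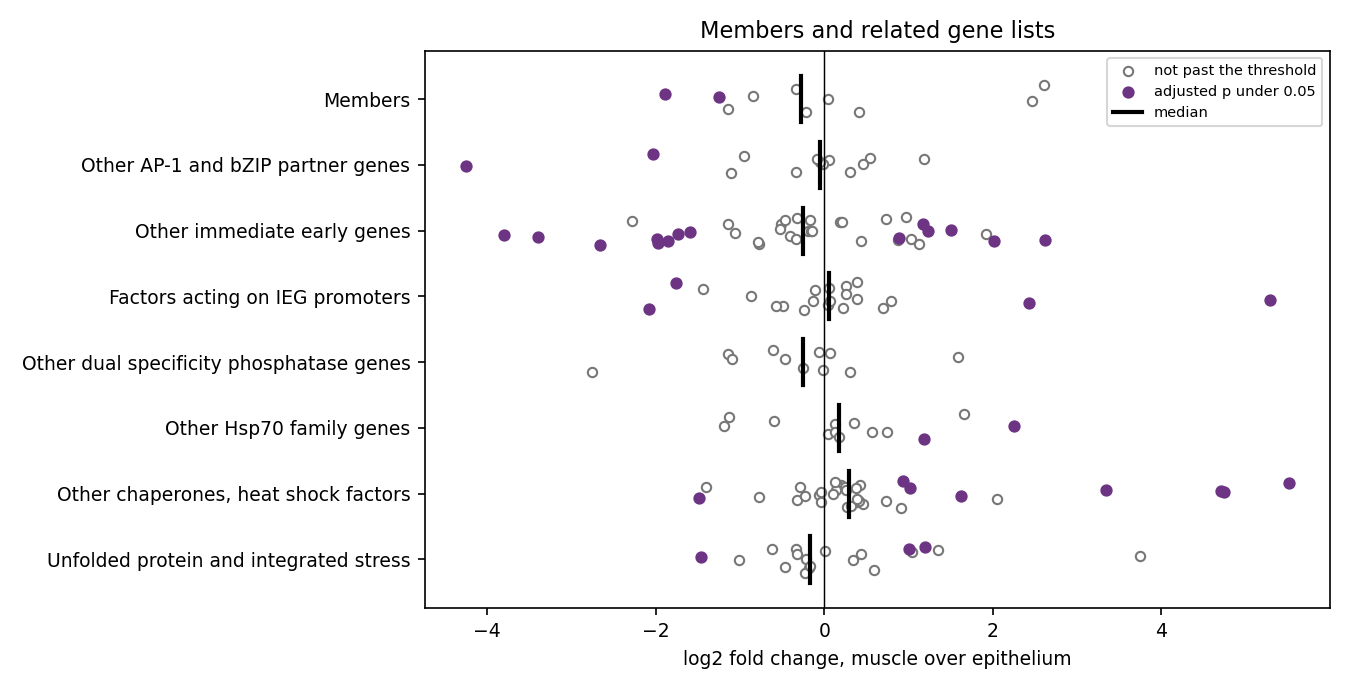
Log2 fold change of muscle over epithelium for the 10 members and each tested gene of 7 related lists: 1 point per gene, filled where the adjusted p was under 0.05, with a black line at each list's median. Filled points lie on both sides of 0 among other immediate early genes (8 toward epithelium, 6 toward muscle) and mostly toward muscle among other chaperones (7 of 8).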

How the data were processed

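The authors deposited 1 table of whole-number counts per gene symbol, with 1 column for each of the 6 libraries. Per the labels, RNA was extracted with Trizol, amplified with SMART-Seq v4 and made into Nextera XT libraries, which carry no molecular identifiers. The submitters' processing notes name Trim Galore, Bowtie2, Cufflinks, DESeq and mm10 without roles, and the counting program is not given in the sources used here. Of counts from 1 to 19, 73.8% to 79.6% per library were even, beside 49.4% to 50.6% of counts of 100 or more.

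The deposited counts were analysed without change in R 4.3.3, using edgeR 4.0.16: filterByExpr by group, scaling by trimmed means of M-values (TMM), a robust two-sided quasi-likelihood test of muscle against epithelium with no covariate, and Benjamini-Hochberg adjustment over all 19375 genes tested (threshold 0.05). Standard errors (SE) were derived from the test statistic. Scripts were tested on simulated data. Libraries were grouped by their titles. For 3 against 3 libraries an exact permutation test cannot go below 0.10, so p-values come from the model across genes. Alternatives used DESeq2 1.42.0, limma 3.58.1 (voom), other scalings and filters, each library left out, the header date (1 library per group on the earlier date) and the replicate number as a block. Promoters are RefSeq windows (GRCm38.p6), and gene models are GENCODE M21, of the build mm10.

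Members and lists were chosen with earlier results of these data known. Besides the members, genes were named by a rule: in each list up to 3 in each direction with the largest change among those past the threshold, with an average log2 CPM of 2 or more and no overlap, or else the 2 of highest level, plus the 5 nearest profiles. A gene named outside it was chosen after its values were seen.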

Additional observations from a re-analysis of the deposited data

How the results depend on the processing

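Across the 159 alternative values of the members, 135 kept their direction and side of the threshold, 6 lost a call, 6 gained one and 12 changed sign, all of the latter in Fos, Fosb, Jun or Junb, none of which was called. The log2 fold change of Fos was -0.30 with library size only, -0.092 with DESeq2, -0.081 with limma-voom, -0.10 with the header date as a term and from -0.27 to 0.42 without 1 library. Without 1 library Fosb ranged from -0.28 to 0.76 and Jun from -0.64 to 0.025, and Junb was 0.12 within the later header date. Without 1 library, the members called ranged from 0 to 2 toward epithelium (0 without muscle replicate 1 or epithelium replicate 3) and were 0 toward muscle. All genes called numbered 2071, 3549 with DESeq2, 3178 with the header date as a term and 1169 to 2573 without 1 library. Without 1 library the calls were 1 to 2 among other AP-1 genes, 9 to 14 among other immediate early genes, 2 to 5 among factors acting on their promoters, 0 to 1 among phosphatases, 1 to 3 among other Hsp70 genes, 5 to 8 among chaperones and 1 to 4 among unfolded protein and stress response genes. Phosphatase calls were 4 with DESeq2 and 1 each with library size only, limma-voom, no filter, the later header date and the date as a term. Calls among other Hsp70 genes were 5 with DESeq2 and 4 with limma-voom or the date as a term. Chaperone calls were 13 with library size only. Unfolded protein and stress response calls were 5 within the later header date and 5 with the date as a term. The cause of these changes was not tested.

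Whether the replicate numbers pair the libraries is not given in the sources used here. Deviations from the group means correlated across 19375 genes at 0.59 and 0.73 for replicates 1 and 2 and at -0.57 for replicates 3. Muscle replicate 3 correlated best with epithelium replicate 1 (0.69). These correlations cannot decide pairing, since muscle replicate 2 also correlated at 0.63 with epithelium replicate 3, and both had high stray receptor counts. With the replicate number as a block, 2418 genes were called, among them Egr1 and Ier2 and also Hspa1a (1.91, adjusted p = 0.045) and Hspa1b (2.04, adjusted p = 0.047), so that 2 members were higher in muscle. Fos was at -0.079, other Hsp70 genes had 4 calls and unfolded protein and stress response genes 6. Maff (adjusted p = 0.057), Egr4 (0.14), Myocd (0.079) and Hspb7 (0.094) did not pass in that fit. Precision is limited by 3 libraries per group, with muscle libraries that differed up to 9.48 times in a member, and counts without molecular identifiers are not independent molecules.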
